A study of Mus musculus with 20 samples.

Results

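The data described are the spread between males in sperm promoter methylation, taken as the SD of normalized reads in each group rather than its mean. Promoters were kept if the mean was at least 5 normalized reads in all 4 groups, which left 7153 of 22480 promoters (31.8%). FVB/N controls decided most of this choice, since 2141 promoters fell below 5 in that group alone, against 41 for C57BL/6J controls, 172 for C57BL/6J DEHP and 199 for FVB/N DEHP. The 595 promoters just inside the minimum (lowest group mean 5.0 to 5.4) had a median SD of 0.375, 0.377, 0.679 and 0.333 of the mean in C57BL/6J controls, C57BL/6J DEHP, FVB/N controls and FVB/N DEHP. For the 561 promoters just outside it (4.6 to 4.9), these values were 0.388, 0.375, 0.686 and 0.352.

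The study compared sperm DNA of F1 males of the inbred strains C57BL/6J and FVB/N, each with 5 males born to mothers given DEHP, a phthalate plasticizer, and 5 control males. DEHP was given to pregnant mothers by gavage in corn oil at 300 mg/kg/day on gestation days 9 to 19, and control mothers received the vehicle. Sperm was taken from the epididymis and vas deferens at 8 weeks of age, and preparations in which somatic cells were seen under the microscope had been discarded. DEHP DNA and control DNA were sequenced in separate submissions that each held both strains, and an effect of submission therefore cannot be told apart from one of DEHP. The study reported more read-pairs on average, and slightly longer reads, for DEHP libraries than for control libraries. Average depth thus also differed with treatment, and its part in the spread was not tested. Each promoter probe covers 2200 bases around a gene start, and only the mean and SD over the 5 libraries of a group, given to 1 decimal, were used. The raw reads of the study were not used, so values of single males and the depth of single libraries are not known here. No test between groups was run, since a permutation test needs single values and a ratio test of 2 variances would rest on normally distributed values, and all comparisons are descriptions. Whether males of a group were littermates is not given in the sources used here.

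In MBD-sequencing, a methyl binding domain captures fragments that carry methylated CpG, so the reads over a promoter rise with both its methylation and its number of CpG. Most CpG-rich promoters are unmethylated in sperm, whereas CpG-poor promoters of tissue-restricted genes are often methylated. Mice of an inbred strain carry nearly the same genome. A few loci, such as alleles of the agouti gene with a retrotransposon inserted, are nevertheless known to be methylated differently between genetically identical mice. The SD over males holds that kind of difference together with the error of capture, library preparation and read sampling, and these cannot be told apart with 1 library per male.

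Promoter sequences are shown for 4 promoters of contrasting spread, because the number of CpG sites sets how many positions the capture can see. Krt2 had spread above that of its level in all 4 groups, and Cbx6 had spread below it in all 4 groups. Cerk had a wide gap in spread between treatments, and Izumo2 had high spread in 1 group. The 250 bases before each gene start are from RefSeq on GRCm38.p6, read 5′ to 3′ on the strand of the gene, with CG in capitals. They lie at chr15:101818170-101818419 (minus strand) for Krt2, chr15:79834334-79834583 (minus strand) for Cbx6, chr15:86186142-86186391 (minus strand) for Cerk and chr7:44708480-44708729 (plus strand) for Izumo2.
Krt2: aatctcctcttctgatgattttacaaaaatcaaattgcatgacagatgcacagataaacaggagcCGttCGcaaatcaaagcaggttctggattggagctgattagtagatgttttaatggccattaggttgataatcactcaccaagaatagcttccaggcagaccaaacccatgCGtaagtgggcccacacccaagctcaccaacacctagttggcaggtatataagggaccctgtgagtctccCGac
Cbx6: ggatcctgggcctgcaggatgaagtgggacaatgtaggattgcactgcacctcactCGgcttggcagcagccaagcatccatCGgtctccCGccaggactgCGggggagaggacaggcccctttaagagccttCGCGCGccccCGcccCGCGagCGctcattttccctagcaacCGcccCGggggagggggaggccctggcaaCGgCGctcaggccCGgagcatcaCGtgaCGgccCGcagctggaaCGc
Cerk: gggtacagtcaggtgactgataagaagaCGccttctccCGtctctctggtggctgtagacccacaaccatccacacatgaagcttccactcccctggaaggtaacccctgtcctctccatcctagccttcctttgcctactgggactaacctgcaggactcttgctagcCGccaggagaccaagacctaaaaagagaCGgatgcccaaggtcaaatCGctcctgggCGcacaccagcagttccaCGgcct
Izumo2: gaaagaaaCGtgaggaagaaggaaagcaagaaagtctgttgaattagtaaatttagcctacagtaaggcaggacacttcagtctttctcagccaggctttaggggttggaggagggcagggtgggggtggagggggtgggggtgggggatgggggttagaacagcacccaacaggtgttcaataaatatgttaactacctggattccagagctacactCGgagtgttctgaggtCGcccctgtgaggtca
These windows hold 4 CG for Krt2, 20 for Cbx6, 7 for Cerk and 3 for Izumo2. Over the 3690 promoters with a single such RefSeq window inside the probe, the median was 5 CG, with quartiles of 3 and 14. The 4 sequences are examples and show no relation of CG to spread, which is given below over all promoters kept.

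The spread between males differed between the 4 groups, and most of all between the FVB/N groups. The median over promoters of the SD divided by the mean (SD/mean) was 0.326 for C57BL/6J controls, 0.361 for C57BL/6J DEHP, 0.508 for FVB/N controls and 0.274 for FVB/N DEHP. The quartiles were 0.247 and 0.413, 0.284 and 0.44, 0.339 and 0.737, and 0.202 and 0.356, respectively. The upper quartile of FVB/N DEHP thus lay close to the lower quartile of FVB/N controls. The SD was larger than the mean itself in FVB/N controls in 605 promoters (8.46%), while it was larger in 0 promoters of each of the other 3 groups. These differences rest on 5 males a group, and promoters measured in the same libraries are not independent of each other.

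The groups differed not only in the size of the spread but in how it changed with level. At 5 to 7 normalized reads, the median SD/mean was 0.445 for C57BL/6J controls, 0.404 for C57BL/6J DEHP, 0.725 for FVB/N controls and 0.376 for FVB/N DEHP. At 10 to 14 normalized reads, it was 0.353, 0.35, 0.505 and 0.275 in the same order, so both C57BL/6J groups were nearly equal at this level. At 20 to 28 normalized reads, it was 0.304, 0.373, 0.353 and 0.211, and FVB/N controls no longer had the largest spread. In the 285 promoters of FVB/N controls above 40 normalized reads the median SD/mean was 0.225, below the 0.318 of C57BL/6J controls at 40 to 80 reads.

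The variance divided by the mean shows the same difference in another form. For FVB/N controls it stayed between 2.86 and 3.25 from the lowest to the highest level, and in FVB/N DEHP it went from 0.849 to 1.26. In C57BL/6J controls it rose from 1.18 at 5 to 7 reads to 11.7 above 80 reads, and in C57BL/6J DEHP from 0.992 to 4.44 above 28 reads. A variance equal to the mean is what the sampling of unscaled reads alone would give, but how many reads stand behind 1 normalized read is unknown here. The variance was below the mean in 54.9% of promoters for FVB/N DEHP, 29.1% for C57BL/6J DEHP, 22.3% for C57BL/6J controls and 14.2% for FVB/N controls.

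**Figure D1:**
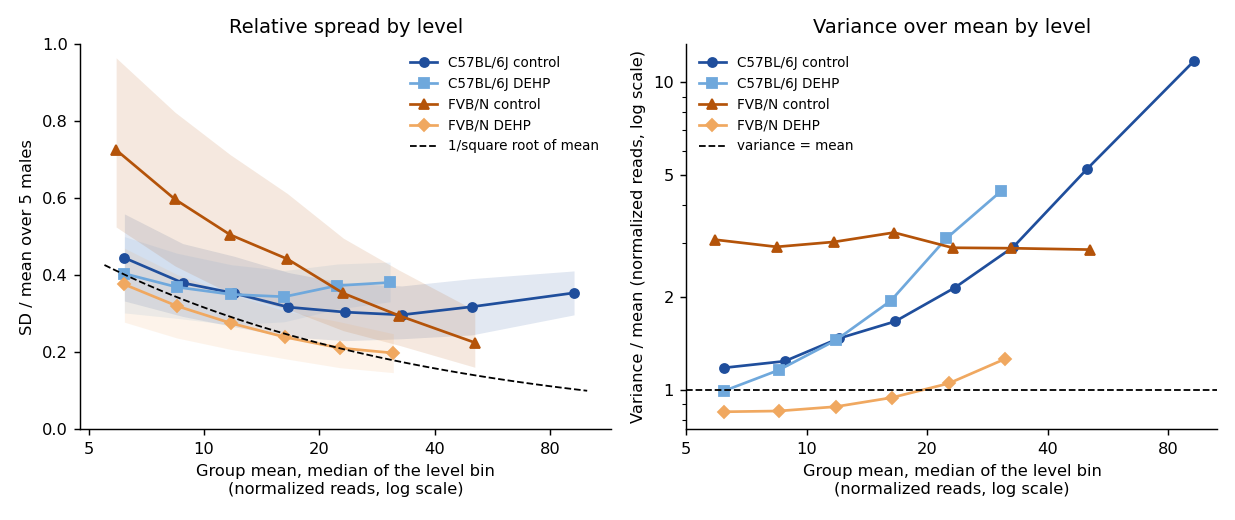
Left, median SD/mean over promoters against the group mean in normalized reads (log axis), with 1 line per group and shaded quartiles. Right, variance/mean on log axes. FVB/N controls start highest (0.725 at 5 to 7 reads) with a flat variance/mean of about 3, both C57BL/6J groups rise in variance/mean with level, and FVB/N DEHP follows the dashed line of variance equal to the mean.

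The level itself differed between groups, so the same promoters were also compared where both means lay within a factor of 1.25. In FVB/N, SD/mean in DEHP was 0.533 times that in controls as a median over all promoters, and 0.526 times in the 2716 promoters of matched level. In C57BL/6J the corresponding ratio was 1.11 over all promoters and 0.984 in 1513 promoters of matched level, and DEHP was higher in 48.2% of the latter. This near equality did not hold at each level. At 20 to 28 normalized reads in each group, the median SD/mean was 0.373 in C57BL/6J DEHP and 0.304 in C57BL/6J controls. At 5 to 7 reads it was 0.404 and 0.445, the other way round. Between strains, FVB/N controls had 1.59 times the SD/mean of C57BL/6J controls over all promoters and 1.11 times in 1150 promoters of matched level. These 1150 do not stand for the rest, since their median SD/mean in FVB/N controls was 0.351, against 0.508 over all promoters. At 10 to 14 normalized reads in each group, the ratio of the medians of the 2 control groups was 1.43. FVB/N DEHP had 0.763 times the SD/mean of C57BL/6J DEHP over all promoters and 0.753 times in 5191 promoters of matched level. The strains thus differed in opposite directions in controls and in DEHP, a difference between the comparisons that was not tested.

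Counted by promoter, 3265 promoters (45.6% of the 7153) had an SD/mean in FVB/N DEHP at or below 0.5 times that in FVB/N controls, and 218 (3.05%) had at least 2 times. In C57BL/6J, 444 promoters (6.21%) were lower and 852 (11.9%) higher in DEHP by the same factor. In controls, 2506 promoters (35.0%) were higher and 292 (4.08%) lower by this factor in FVB/N than in C57BL/6J. In DEHP, 273 (3.82%) were higher and 1481 (20.7%) lower in FVB/N.

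To find promoters whose spread was unusual for their level, SD/mean was divided by the median of the same group and level bin, and the log2 of this ratio is called the excess spread. At least 2 times the median of the level was reached by 47 promoters (0.657%) for C57BL/6J controls, 26 (0.363%) for C57BL/6J DEHP, 316 (4.42%) for FVB/N controls and 90 (1.26%) for FVB/N DEHP. At most 0.5 times the median was found for 449 (6.28%), 315 (4.4%), 661 (9.24%) and 473 (6.61%), respectively. An SD from 5 males is itself a rough value, and for normally distributed values its 95% interval runs from 0.599 to 2.87 times the estimate. On the log2 scale, such estimates have an SD of 0.579 around a common true value. The excess spread had an SD over promoters of 0.56 for C57BL/6J controls, 0.506 for C57BL/6J DEHP, 0.695 for FVB/N controls and 0.588 for FVB/N DEHP.

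The groups share no males, so the excess spread of a promoter in 1 group can be looked up in the other 3. Across the 7153 promoters, the excess spread of the 2 control groups had a Spearman correlation of 0.152, and 115 promoters (16.1% of each) stood among the top 10% of both. The other 5 pairs of groups had correlations between -0.019 and 0.032, with 7.36 to 11% of the top 10% shared. Mean levels of the same promoters had correlations of 0.632 to 0.861 between groups. The control groups share a submission, as do the DEHP groups, whose correlation was 0.011, and the part of the submission in these values was not tested.

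Counted over groups, 494 promoters (6.91%) were above the median of their level in all 4 groups and 514 (7.19%) in none. The reference centres each group on its level, so groups unrelated to each other would give shares near these in both classes. Promoters named below for all 4 groups are therefore the ends of a ranking, and their likeness between groups was not tested. No promoter reached 2 times its level in 3 or 4 groups, and 6 did in 2 groups. Of these 6, Cela1, Mir6418 and Nrn1l did so in both control groups, and Gm10637, Mir129-1 and Rcor2 in both FVB/N groups. They were named after their values were seen. Cela1, an elastase, had 31.9 ± 20 and 20.9 ± 16.1 normalized reads in C57BL/6J and FVB/N controls, against 16.1 ± 3.8 and 16.3 ± 2.6 in DEHP. FVB/N controls were part of each of the 6 pairs and had the largest share of promoters above their level. These shares were 0.657% for C57BL/6J controls, 0.363% for C57BL/6J DEHP, 4.42% for FVB/N controls and 1.26% for FVB/N DEHP. At or below 0.5 times the level, 185 promoters were found in 2 groups, 7 in 3 groups and 0 in all 4. The shares of single groups were 6.28, 4.4, 9.24 and 6.61% there. Both overlaps are near what such shares would give for groups unrelated to each other.

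The promoters with spread above their level in all 4 groups were led by Krt2, which encodes a keratin of the epidermis. Its probe (chr15:101817970-101820169 on mm10, 30 CG sites, 0 variants between the strains) overlaps exons of Krt2. Normalized reads were 11.7 ± 6.6 (SD, n = 5) for C57BL/6J controls, 9.4 ± 5.3 for C57BL/6J DEHP, 6.8 ± 7.3 for FVB/N controls and 10 ± 4.1 for FVB/N DEHP. The SD/mean was 1.6, 1.53, 1.48 and 1.49 times that of the level, so no group reached 2 times its level.

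Nrn1l, a relative of the neuronal protein neuritin, was the only 1 of the 8 promoters named by this rule that reached 2 times its level in 2 groups. Its probe (chr8:105891570-105893769, 31 CG sites) also overlaps exons of Edc4, a gene of mRNA decapping. It had 27.4 ± 16.7 normalized reads for C57BL/6J controls (2.0 times its level), 15.4 ± 9.0 for C57BL/6J DEHP (1.7 times), 16.1 ± 18.1 for FVB/N controls (2.55 times) and 16.8 ± 5.9 for FVB/N DEHP (1.47 times). The means of the FVB/N groups were close, while the SD of FVB/N controls was larger than their mean.

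Of the other promoters named by the same rule, 3 belong to metabolic or translation genes and 3 to microRNAs. Engase, a cytosolic enzyme that releases N-glycans, had 14.4 ± 10.6 normalized reads in FVB/N controls, compared with 13.1 ± 6.3 after DEHP. Slc13a3, a sodium-coupled carrier of dicarboxylates, had 11.4 ± 10.1 and 14.2 ± 6.5 in these groups. Eef1d, a subunit of translation elongation factor 1, has a CG-rich probe (170 CG sites) that overlaps that of Tigd5, with 31.7 ± 13.7 in C57BL/6J controls and 10.1 ± 5.1 in C57BL/6J DEHP. Mir7016 lies in Tmem39b, Mir6973b overlaps exons of Gfra4, and Mir26b lies in Ctdsp1. Mir26b had 38.3 ± 16.4, 11.6 ± 6.3, 25 ± 20 and 15 ± 5.5 normalized reads in the 4 groups, in the order used above. In FVB/N controls Mir26b and Mir6973b reached 2.26 and 2.05 times their level. For all 8 promoters the smallest ratio to the level was between 1.44 and 1.48.

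Of promoters with spread below the level in all 4 groups, Cbx2 had the lowest value when each is ranked by its highest group, whereas Lincenc1 had a lower mean excess (-1.36 against -1.16). Cbx2 encodes a chromodomain subunit of the Polycomb repressive complex PRC1. Its probe (chr11:119021029-119023228, 117 CG sites) overlaps exons of Cbx2. The 5 males had 11.8 ± 2.2 normalized reads for C57BL/6J controls, 8.4 ± 1.5 for C57BL/6J DEHP, 9.1 ± 1.6 for FVB/N controls and 7.1 ± 1.2 for FVB/N DEHP. These SD/mean values were 0.527, 0.484, 0.294 and 0.529 times those of the level. Cbx6, another chromodomain subunit of this complex, was also among the 6 promoters named for low spread. Its probe (chr15:79834134-79836333, 78 CG sites) is shared with Npcd, and it had 8.0 ± 1.7, 9.0 ± 1.1, 6.3 ± 2.7 and 8.7 ± 1.2 normalized reads in the same order.

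The other promoters of low spread were Fam167a, Bmx, Lincenc1 and Edc3. Bmx, a Tec family tyrosine kinase on chromosome X, had 7.6 ± 1.7, 6.5 ± 1.5, 5.6 ± 2.4 and 6.2 ± 1.3 normalized reads. Lincenc1, a long noncoding RNA, had 11.3 ± 1.0 in C57BL/6J controls, which was 0.25 times the spread of its level. Edc3, an enhancer of mRNA decapping, had 8.6 ± 2.0, 5.3 ± 1.2, 7.2 ± 1.7 and 6.7 ± 1.4, and Fam167a had 14.1 ± 2.6, 10.7 ± 2.0, 9.2 ± 2.3 and 8.6 ± 1.1. Their means were between 5.3 and 14.1 normalized reads, so no promoter of high level was among the 6.

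**Figure D2:**
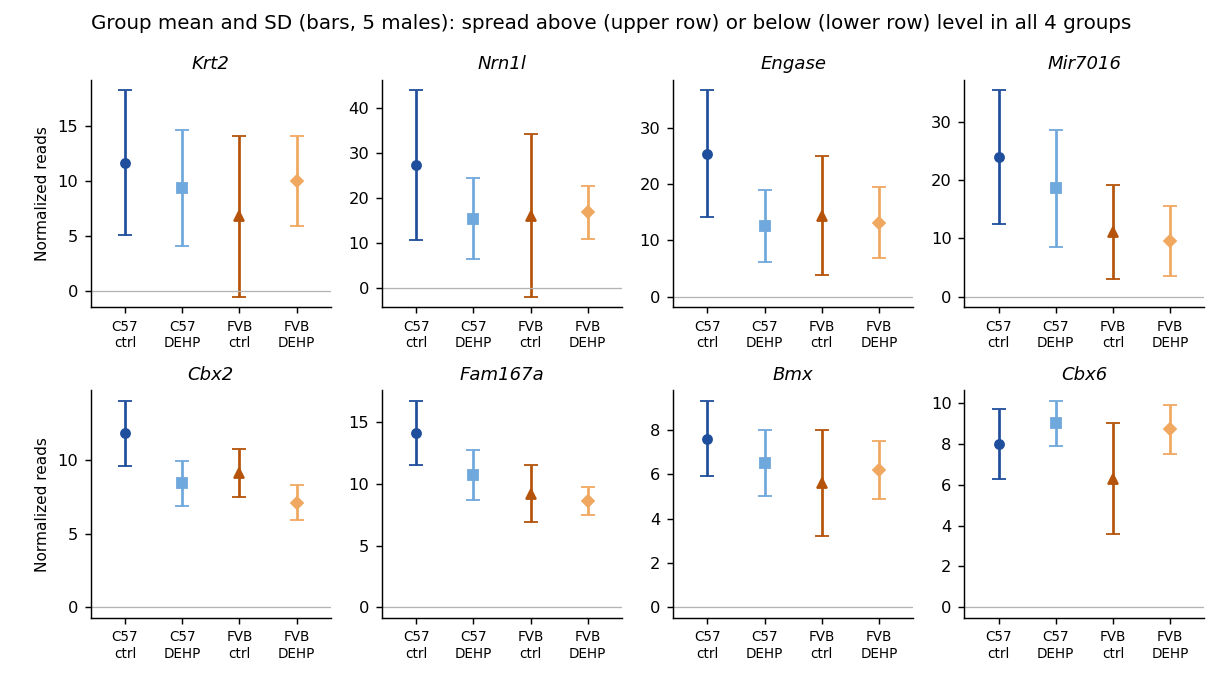
Mean (symbol) and SD over 5 males (bars) in normalized reads for 4 promoters with spread above (upper row) and 4 with spread below (lower row) that of their level in all 4 groups. Bars of Krt2 reach from near 0 to more than 14 reads in FVB/N controls (6.8 ± 7.3), whereas those of Cbx2 stay within 1.6 reads of the mean (9.1 ± 1.6).

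Promoters whose excess spread differed between treatments in the same direction in both strains were searched for next. After the level was taken into account, DEHP was higher by a factor of 2 or more in 608 promoters (8.5%) and lower in 577 (8.07%) in C57BL/6J, and higher in 908 (12.7%) and lower in 944 (13.2%) in FVB/N. The reference centres each group on its own level, so the near balance of both directions is built in. In 56 promoters both control groups exceeded both DEHP groups by at least 1 on the log2 scale, and in 50 promoters both DEHP groups exceeded both control groups. These are 0.783% and 0.699% of the 7153 promoters. At any gap above 0, the shares were 19.2% and 17.8%. Groups unrelated to each other would also give promoters of both kinds. Those named below are therefore the ends of a ranking, and a link of their spread to treatment was not tested.

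Of the promoters named for treatment, Cerk showed the widest gap. It encodes ceramide kinase, and its probe (chr15:86185942-86188141, 39 CG sites, 5 variants between the strains) overlaps exons of Cerk and of the antisense gene Gm15569. Control males had 14.8 ± 8.5 normalized reads for C57BL/6J and 7.7 ± 7.1 for FVB/N, and DEHP males had 11.1 ± 0.7 and 9.1 ± 0.7. The spread was 1.81 and 1.54 times that of the level in controls, against 0.18 and 0.241 times in DEHP. Both control groups thus lay above their level, and both DEHP groups far below it.

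Another promoter of this kind was Alpi. Alpi, the intestinal alkaline phosphatase, had 18.7 ± 9.8 and 10.8 ± 11.2 in controls, against 11.4 ± 1.9 and 11.9 ± 1.1 in DEHP. The SD of FVB/N controls was larger than their mean at this promoter.

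In the opposite direction, Mir7-1, a microRNA within Hnrnpk, had nearly the same mean in all groups but a larger SD in DEHP. It had 11.5 ± 1.3 normalized reads in C57BL/6J controls and 11.3 ± 2.2 in FVB/N controls, against 10.8 ± 4.5 and 10.9 ± 4.5 in DEHP. The pseudogene Gm5476 had 9.9 ± 0.9 and 9.9 ± 2.0 in controls against 10.2 ± 3.7 and 6.8 ± 4.5 in DEHP. Slc8a1, the sodium-calcium exchanger of heart muscle, had 25.3 ± 3.2 and 16.6 ± 2.3 in controls against 10.4 ± 4.4 and 12.2 ± 4.5 in DEHP. Its lower mean and its higher SD went together. At Mir7-1, Gm5476 and Slc8a1 the DEHP groups lay at 1.04 to 1.76 times their level and the control groups at 0.239 to 0.416 times. These gaps thus came more from low spread in controls.

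Between strains, excess spread was higher by a factor of 2 or more in FVB/N in 791 promoters (11.1%) and lower in 756 (10.6%) in controls, and higher in 608 (8.5%) and lower in 677 (9.46%) in DEHP. The difference had an SD over promoters of 0.831 in controls and 0.773 in DEHP. Both FVB/N groups exceeded both C57BL/6J groups by at least 1 on the log2 scale in 20 promoters (0.28%), and the reverse held in 36 (0.503%). At any gap above 0, the shares were 16.9% and 15.5%. Unrelated groups would give such promoters too, so those named for strain are also the ends of a ranking, and a link to strain was not tested. BC051019 showed the widest gap, with 20.5 ± 1.1 and 14.9 ± 1.3 normalized reads in C57BL/6J controls and DEHP against 12.7 ± 8.3 and 17.4 ± 5.2 in FVB/N. Its spread was only 1.3 and 1.25 times the level in FVB/N, and the gap came mainly from 0.176 and 0.254 times in C57BL/6J. Its probe (chr7:109723651-109725850, 24 CG sites) carries 0 variants between the strains.

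The olfactory receptor promoter Olfr5 (chr7:6486614-6488813, overlapping Olfr1347) had 16.8 ± 2.8 and 9.0 ± 1.2 normalized reads in C57BL/6J controls and DEHP, compared with 8.9 ± 10 and 13.4 ± 6.9 for FVB/N, and carries 19 variants. E030018B13Rik, also on chromosome 7, had 30.2 ± 2.5 and 14.5 ± 2.0 against 16.1 ± 16.8 and 17.1 ± 5.8. In C57BL/6J the spread was higher for Cfd, the complement protease factor D, with 15.5 ± 6.4 and 7.4 ± 3.2 against 19.3 ± 1.3 and 13.2 ± 1.3 in FVB/N. Atp6v1g2, a subunit of the proton pump of vesicles, had 18.9 ± 8.2 and 14.7 ± 8.0 against 17.0 ± 2.4 and 9.4 ± 1.4. Tbc1d16, a regulator of Rab GTPases, had 16.7 ± 6.8 and 6.9 ± 3.0 against 14 ± 2.3 and 8.4 ± 0.7. For Cfd and Tbc1d16, C57BL/6J lay at only 1.08 to 1.3 times the level, and the gaps came mainly from 0.153 to 0.372 times in FVB/N. Atp6v1g2 had 1.37 and 1.58 times the level in C57BL/6J against 0.32 and 0.466 times in FVB/N.

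**Figure D3:**
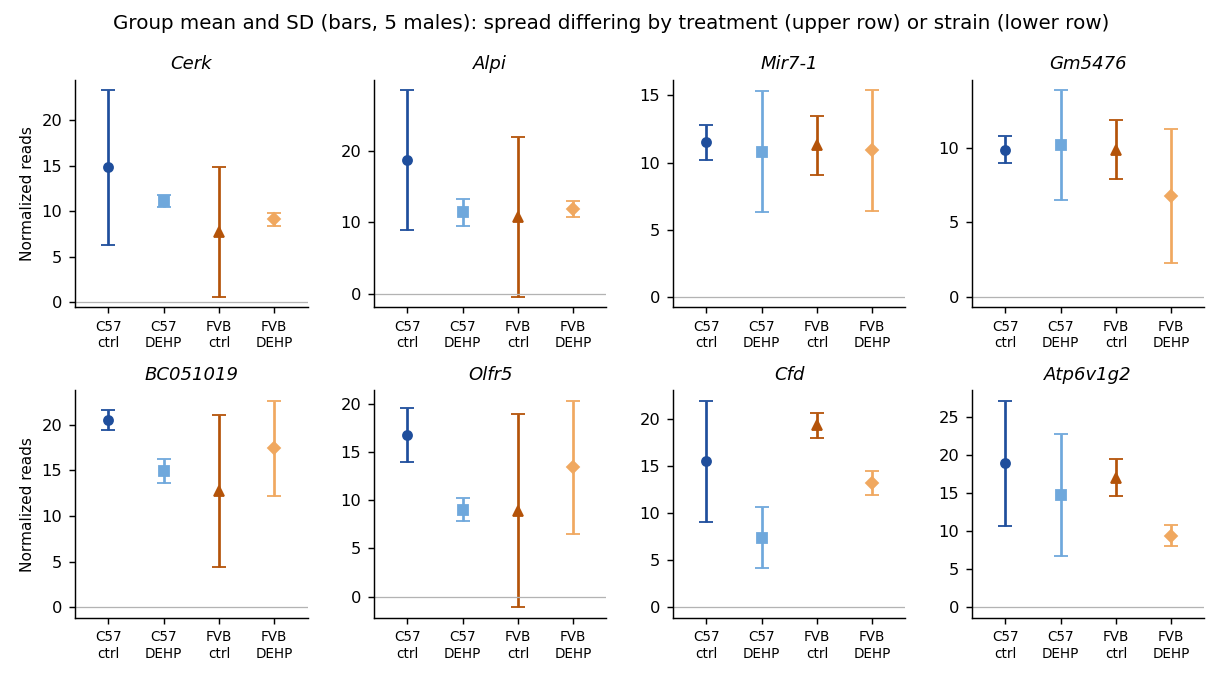
Mean (symbol) and SD over 5 males (bars) in normalized reads for promoters named for a difference in spread between treatments (upper row) or strains (lower row). Cerk has wide bars in both control groups (14.8 ± 8.5 and 7.7 ± 7.1) and narrow bars in both DEHP groups (11.1 ± 0.7 and 9.1 ± 0.7).

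Some promoters had a wide gap in spread between 1 group and the other 3. Izumo2, a member of the Izumo family of sperm surface proteins, had 14.1 ± 10.9 normalized reads for C57BL/6J controls, against 10.3 ± 2.2 for C57BL/6J DEHP, 12.4 ± 2.2 for FVB/N controls and 7.7 ± 1.8 for FVB/N DEHP. Its probe (chr7:44706743-44708942) holds 40 CG sites and 0 variants between the strains. Irgq, an immunity-related GTPase, was similar in that group with 17.2 ± 10.9, and its SD was 1.1, 4.2 and 1.1 in the other 3 groups. In C57BL/6J DEHP, Fcho2, a protein of clathrin-coated pits, had 6.4 ± 5.0 against an SD of 2.7, 3.3 and 0.5 elsewhere. Kcnj1, a potassium channel of the kidney, was named for the same group with 17.1 ± 6.5, but this was only 1.11 times its level, and its gap came from the other groups at 0.263, 0.291 and 0.391 times theirs.

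In FVB/N DEHP, Fam219aos, whose probe overlaps that of 1110017D15Rik, had 11.3 ± 7.1 normalized reads, against an SD of 2.9, 2.9 and 1.8 in the other 3 groups. Among FVB/N controls, Gm15319 (chr8:20363003-20365202, only 6 CG sites) had 33.2 ± 41.2 normalized reads, which is 4.21 times the spread of its level. The other groups had 33.9 ± 5.3, 41.0 ± 9.6 and 64.9 ± 13.1 at this promoter. Sox5os3, an RNA antisense within Sox5, had 16.1 ± 15.4 in FVB/N controls, against an SD of 4.2, 3.5 and 1.8. Such gaps of at least 1 on the log2 scale between a group and the highest of the other 3 were found for 122 promoters (1.71%) for FVB/N controls, 51 (0.713%) for FVB/N DEHP, 44 (0.615%) for C57BL/6J DEHP and 23 (0.322%) for C57BL/6J controls. At any gap above 0, the shares were 30.7, 24.9, 22.9 and 21.5% in this order. Unrelated groups would give such promoters too, so those named for 1 group are the ends of a ranking.

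The excess spread varied with the base composition of the probe, and not alike in the 4 groups. In both control groups the excess spread rose with the GC content of the probe, with a Spearman correlation across promoters of 0.237 for C57BL/6J controls and 0.236 for FVB/N controls, against 0.105 for C57BL/6J DEHP and 0.027 for FVB/N DEHP. From the promoters lowest in GC (29.5 to 45.3%) to those highest (53.3 to 66.9%), the median excess on the log2 scale went from -0.16 to 0.18 in C57BL/6J controls and from -0.25 to 0.24 in FVB/N controls. In C57BL/6J DEHP it went from -0.04 to 0.10, and in FVB/N DEHP from -0.01 to 0.02. Promoters share the 5 libraries of a group, and the 2 control groups share a submission.

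The relation to the number of CG sites was another, and was strongest for FVB/N controls. There the excess spread fell with the number of CG sites (Spearman correlation -0.189), from a median of 0.15 at 6 to 23 sites to -0.19 at 64 to 188 sites. In the other groups the correlation with CG sites was 0.051 for C57BL/6J controls, 0.095 for C57BL/6J DEHP and 0.025 for FVB/N DEHP. At a level of 10 to 14 normalized reads in FVB/N controls, the variance/mean was 4.36 in the promoters with fewest CG sites (median 22), 2.83 in the middle class (32) and 2.4 in those with most (67). In FVB/N DEHP it was 0.864, 0.875 and 0.923 for the matching classes.

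GC content and CG sites go together (Spearman correlation 0.58 over the members), so both were also considered at once. In FVB/N controls, promoters of the highest GC class with few CG sites (median 35) had a median spread of 1.49 times their level, whereas those with many (median 96) had 0.945 times. In GC class 2 (45.3 to 48.1%), the values were 1.15 times with few and 0.762 times with many CG sites. The highest excess in this group thus stood in the highest GC class with the fewest CG sites for that class, whose median of 35 sites equals that of all members. The SD/mean itself was not highest there, with a median of 0.551 against 0.667, 0.681 and 0.682 in the GC classes 2, 3 and 4 with few CG sites. In C57BL/6J controls, the highest GC class had 1.15, 1.14 and 1.11 times the spread of the level with few, intermediate and many CG sites, so the classes of CG sites lay closer together there than in FVB/N controls.

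**Figure D4:**
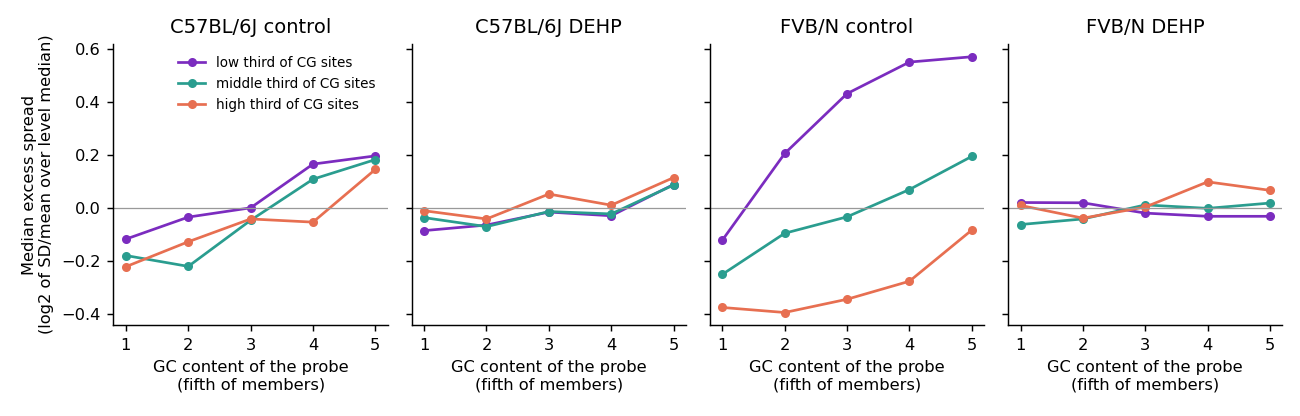
Median excess spread (log2 of SD/mean over the median of the level) against GC content of the probe in 5 classes, with 1 line for each class of CG sites within the GC class, in the 4 groups. The lines rise in both control groups and are spread apart by CG sites in FVB/N controls (from 1.49 to 0.945 times the level in the highest GC class), and lie between -0.08 and 0.12 in both DEHP groups.

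The likeness of the 2 control groups remained when GC content or CG sites were taken into account, and its size depended on the reference. With a reference by level and GC content, their excess spread had a correlation of 0.095, against 0.152 by level alone. Within the 5 GC classes it was between 0.07 and 0.166, and with a reference by level and CG sites it was 0.167. The repeat-masked share of the probe had a correlation of -0.146 with excess spread in FVB/N controls and of -0.034, -0.032 and -0.012 in C57BL/6J controls, C57BL/6J DEHP and FVB/N DEHP. The number of sequence variants between the strains, of which 44.1% of promoters carry at least 1, had correlations between -0.018 and 0.002 in the 4 groups.

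Neighbouring promoters had a like spread mainly where their probes overlapped. Where probes overlapped or were the same (324 pairs), the excess spread of neighbours had correlations of 0.511, 0.444, 0.486 and 0.479 in C57BL/6J controls, C57BL/6J DEHP, FVB/N controls and FVB/N DEHP. With a gap of up to 10 kb (656 pairs) these were 0.109, 0.081, 0.074 and -0.02. Overlapping probes count the same fragments in part, so their likeness is built in.

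The median excess of chromosome X lay outside the range of the autosomal medians in all 4 groups, above it in C57BL/6J and below it in FVB/N. A median over the 30 promoters kept on X is less certain than one over the 169 to 670 promoters of an autosome, and the difference was not tested. A sperm carries either an X or a Y, and promoters on X were rare among those kept, with 30 of 753. The median excess of these 30 promoters was 0.27 in C57BL/6J controls and 0.12 in C57BL/6J DEHP, where the 19 autosomes ranged from -0.17 to 0.14 and from -0.07 to 0.07. In FVB/N it was -0.38 in controls and -0.20 in DEHP, where the autosomes ranged from -0.15 to 0.11 and from -0.06 to 0.08. The promoters on X were above the median of their level in 66.7% in each C57BL/6J group, against 30.0% and 43.3% in FVB/N controls and DEHP.

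Promoters on X had fewer CG sites than autosomal ones (median 26 against 35). With a reference by level and CG sites the medians were 0.29, 0.13, -0.49 and -0.21. Split by position, the 15 promoters of each part of X had medians of 0.38 and 0.19 for C57BL/6J controls, 0.11 and 0.28 for C57BL/6J DEHP, -0.39 and -0.37 for FVB/N controls, and 0.07 and -0.32 for FVB/N DEHP. In FVB/N DEHP the medians of the 2 parts thus differed in sign, but each rests on only 15 promoters, and the difference was not tested. Among the examples of this list, Brs3, a bombesin-like receptor, had 6.6 ± 1.3, 6.4 ± 3.2, 5.7 ± 0.5 and 8.2 ± 2.1 normalized reads, and the microRNA Mir374c had 9.5 ± 3.5, 7.5 ± 2.9, 9.6 ± 1.7 and 9.5 ± 1.2. None of the 5 promoters on chromosome Y reached the minimum.

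**Figure D5:**
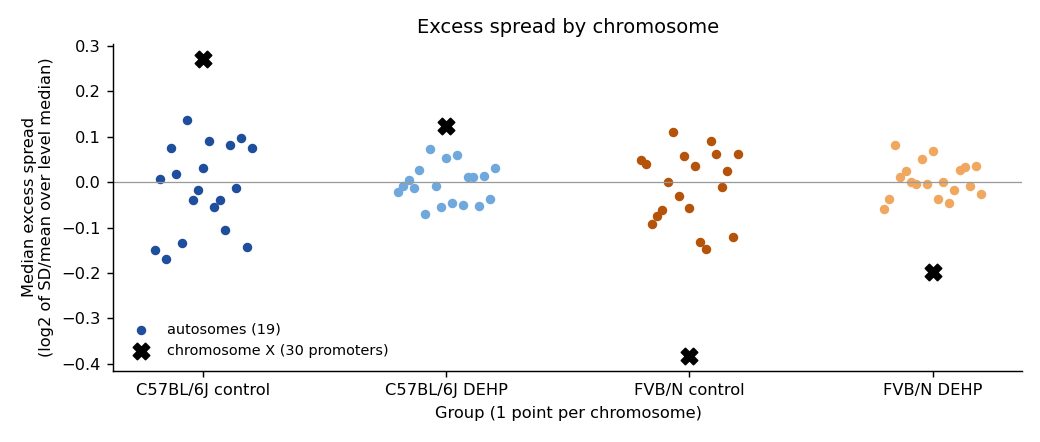
Median excess spread (log2 of SD/mean over the median of the level) of each autosome (circles) and of chromosome X (crosses, 30 promoters) in the 4 groups, where each autosome holds 169 to 670 promoters. The cross lies above all autosomes in both C57BL/6J groups (0.27 and 0.12) and below all autosomes in both FVB/N groups (-0.38 and -0.20).

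Most gene lists had a median spread close to that of their level. Of 37 lists by gene family, chromosome, annotation or marker, 15 held at least 20 promoters, and their median excess lay within 0.1 of 0 on the log2 scale for 11 lists for C57BL/6J controls, 12 for C57BL/6J DEHP, 9 for FVB/N controls and 10 for FVB/N DEHP. MicroRNAs were the largest family, with 635 of 996 promoters kept and medians of 0.00, 0.03, 0.11 and -0.01. In FVB/N controls, 39 of them (6.14%) were at least 2 times their level, beside 4.42% of all promoters, and 53 (8.35%) were at most 0.5 times, beside 9.24%. Among them, Mir6947 had 67.2 ± 10.5, 31.2 ± 10.5, 50.7 ± 3.8 and 39.1 ± 1.7 normalized reads, and Mir320 had 19.4 ± 2.3, 8.6 ± 2.8, 16.9 ± 1.3 and 11.5 ± 3.0.

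Of 383 promoters annotated to spermatogenesis 132 were kept, with median excess of 0.07, 0.03, -0.04 and 0.13 in the 4 groups. In FVB/N controls 19 of these (14.4%) were at most 0.5 times their level, beside 9.24% of all promoters, and in FVB/N DEHP 5 (3.79%), beside 6.61%. Meig1, needed for the spermatid manchette, had 8.3 ± 1.9, 9.0 ± 1.4, 6.0 ± 3.3 and 9.6 ± 1.6 normalized reads. The testis protease Prss42 had 6.7 ± 2.5, 5.5 ± 0.7, 10 ± 2.3 and 6.8 ± 2.4. Of 846 promoters of the sperm proteome 264 were kept, with medians of 0.00, -0.03, -0.12 and 0.07, and 31 (11.7%) were at most 0.5 times their level in FVB/N controls.

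All 5 promoters of protamines and transition proteins, which package the sperm genome, were kept, and Prm2 and Tnp2 were added to the named ones after their values were seen. Prm1 had 24.2 ± 11.9 normalized reads in C57BL/6J controls (1.62 times the spread of its level) and 27.4 ± 4.5 in FVB/N controls (0.465 times), with 11.8 ± 2.9 and 8.9 ± 2.1 in the DEHP groups. Tnp2 had 43.1 ± 19.7 and 28 ± 7.2 in controls, and 14.1 ± 4.5 and 12.7 ± 3.0 in DEHP. The SD was larger in C57BL/6J than in FVB/N controls for both. Prm2 had 28.9 ± 6.5 and 19.7 ± 9.1 in controls, and 9.6 ± 2.7 and 11.3 ± 5.8 in DEHP. Prm3 had 69.0 ± 27.7, 19.8 ± 7.9, 49.6 ± 13.6 and 22.8 ± 3.6 in the order of groups used above, and Tnp1 had 6.4 ± 2.7, 7.0 ± 1.3, 6.2 ± 3.7 and 5.0 ± 2.7. In 4 of the 5 the mean was higher in controls, and the strain with the larger SD among controls was not the same for all of them.

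Zinc finger genes of the Zfp family, many of which encode DNA-binding repressors, were low in FVB/N controls. Of 338 promoters 59 were kept, with a median excess of -0.28 in that group and of 0.08, 0.10 and 0.08 in C57BL/6J controls, C57BL/6J DEHP and FVB/N DEHP. Of the 59, 11 (18.6%) in FVB/N controls were at most 0.5 times their level, beside 9.24% of all promoters. In the same group 0 were at least 2 times their level, beside 4.42% of all promoters, so this count is near the background. Zfp319 (105 CG sites) had 12.8 ± 2.9 normalized reads in that group and 18 ± 4.2, 5.9 ± 2.8 and 6.9 ± 0.4 in the others. Zfp180 had 9.1 ± 2.2, 7.0 ± 1.3, 8.8 ± 4.8 and 7.1 ± 1.0.

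Keratin promoters, to which Krt2 belongs, were kept in 44 of 52 cases with medians of 0.15, -0.03, 0.02 and 0.11. In FVB/N DEHP 6 of the 44 (13.6%) were at most 0.5 times their level, beside 6.61% of all promoters, so Krt2 did not stand for its family. Krt25 had 8.2 ± 1.4 in FVB/N controls, where Krt2 had 6.8 ± 7.3. Of 1074 olfactory receptor promoters only 85 were kept, with medians of -0.09, -0.07, 0.05 and -0.02. Cytochromes P450, which include enzymes of xenobiotic and steroid metabolism, were kept in 27 of 104 cases with medians of 0.20, 0.11, 0.04 and 0.20. Cyp2w1 had 63.5 ± 26.1, 22.1 ± 10.7, 32.1 ± 23.4 and 27.5 ± 6.9 normalized reads, and Cyp2e1 had 9.7 ± 2.3, 7.9 ± 1.6, 5.9 ± 1.8 and 6.6 ± 0.9. Small nucleolar RNAs (49 of 101) had medians of 0.16, 0.12, -0.18 and -0.15. In each FVB/N group 3 of them (6.12%) were at most 0.5 times their level, beside 9.24% of all promoters in controls and 6.61% in DEHP.

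Imprinted genes, whose alleles are methylated by parent of origin, were kept in 39 of 126 cases, and 0 of them reached 2 times their level in any group, beside 0.657, 0.363, 4.42 and 1.26% of all promoters, so this count is near the background. Their medians were 0.05, 0.04, -0.13 and 0.00. Meg3, a paternally methylated noncoding RNA, had 25.8 ± 10.3, 9.2 ± 2.7, 7.0 ± 2.0 and 5.2 ± 0.7 normalized reads, and Begain had 19.9 ± 3.1, 8.9 ± 1.6, 12.3 ± 5.2 and 11.4 ± 2.7. Of 12 loci in the table known from other mice to vary in methylation or copy number, 5 were kept. Whether the males here carried the variable alleles is not given in the sources used here, so the list serves as no check of the spread. Agouti (a) had 21.6 ± 7.3, 13.8 ± 4.6, 7.5 ± 4.7 and 7.0 ± 2.5, and Axin1 had 15.3 ± 9.7, 5.0 ± 2.1, 11.7 ± 4.3 and 8.6 ± 1.6. The other 3, Dnajb1, Slc15a2 and Sfi1, had values from 0.627 to 1.33 times their level, so no promoter of this list was called above its level, though Axin1 lay just under 2 times in C57BL/6J controls. Sfi1 had 1971.9 ± 702.5 and 1343.6 ± 210.7 normalized reads in the C57BL/6J and FVB/N controls, against 171.9 ± 43.5 and 97.4 ± 17.8 in DEHP.

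Markers of somatic DNA, which is methylated where sperm DNA is not, were examined beside the spread. The 13 germline promoters known to be methylated in soma had summed means of 105.4, 81.6, 105.6 and 77.4 normalized reads in the 4 groups, with 0 of 13 listed at 0 and single means from 1.5 to 16.9. All promoters together summed to 226268, 153283, 141091.6 and 150346, so that per 100000 normalized reads the germline markers held 46.6, 53.2, 74.8 and 51.5, with the highest share in FVB/N controls. The 21 promoters methylated on the maternal allele in soma had summed means of 109.9, 94.1, 92.6 and 93.5, or 48.6, 61.4, 65.6 and 62.2 per 100000, with 0 of 21 listed at 0 and single means from 0.5 to 26.5, and only Nnat was kept (26.5 ± 8.6, 9.5 ± 3.8, 18.1 ± 7.0 and 14.6 ± 2.4). Of the germline promoters 7 were kept, with a median SD/mean of 0.393, 0.313, 0.291 and 0.402. Whether the 7 promoters rose and fell together over males cannot be seen from means and SDs. Their SDs were unequal in FVB/N controls, where Mael had 9.5 ± 0.9, Hormad1 10.8 ± 2.4, Tdrd1 15.4 ± 4.0 and Slc25a31 8.6 ± 2.5. Larger SDs in that group were those of Ddx4 with 9.5 ± 4.4, Asz1 with 8.0 ± 4.1 and Tex101 with 7.9 ± 6.5. Slc25a31 had 6.0 ± 5.8 in C57BL/6J controls. The part of somatic DNA in the spread was not tested.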

How the data were processed

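Sperm DNA of 20 males (5 in each of 4 groups) was measured by MBD-sequencing. Read-pairs were placed on mm10 by the authors using Bowtie 0.12.7, who discarded pairs with several positions, non-concordant pairs and pairs without CpG, counted pairs per probe and normalized them with edgeR. From the deposited table, the signal (group mean of normalized reads) and its SD, both with 1 decimal, were taken for 22480 promoters. Fold changes, p-values and FDR of the authors' own comparisons, and the expression values from another study, were not used. The treatment of duplicate pairs and the scale of the normalization are not given in the sources used here. The raw reads were not used and the depth of single libraries was not determined, so no counting interval was computed.

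SD/mean was compared in bins of group mean with edges 5, 7, 10, 14, 20, 28, 40 and 80, where a bin with under 50 promoters was joined to the bin below. Excess spread is the log2 of SD/mean over the median of its group and bin, called at a factor of 2. An SD/mean below 0.005 was set to that value. Since the table holds no values of single males, the permutation test foreseen for such values was not run. The calculation was tested on simulated data. The members and lists were chosen with earlier results of these data known. Promoters were named by the highest lowest excess over the groups (8), the lowest highest excess (6), the widest gaps by strain and treatment (3 per direction) and by single group (2), and up to 3 per list by mean excess, besides the marker lists. Some promoters that this rule names are not reported here. Sequence features came from GRCm38.p6, where 93.2% of probes had the deposited number of CG sites, and exons from GENCODE. Alternatives were another reference by level, other minima, scaling, a factor of 1.5, removal of the counting share, references by CG sites or GC content, and subsets of promoters. Python 3.11.15, numpy 2.4.6, pandas 2.3.3, scipy 1.17.1 and matplotlib 3.10.9 were used.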

Additional observations from a re-analysis of the deposited data

How the results depend on the processing

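Of 230 values recomputed under alternatives, 185 stayed within the limits set (a factor of 1.5, or 0.1 for the median excess of a list). The running median over 500 promoters, levels scaled to equal sums, a minimum mean of 1, 1 probe per overlapping set, removal of X and Y, and the reference by GC content (added after the data were seen) moved none of the values computed under them.

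With a minimum mean of 10, only 3058 promoters remained. Promoters above their level were then 12, 5, 134 and 30, and below it 173, 102, 287 and 196, in C57BL/6J controls, C57BL/6J DEHP, FVB/N controls and FVB/N DEHP; 3 were above and 77 below in at least 2 groups. Excess was higher and lower by a factor of 2 in DEHP in 221 and 210 promoters in C57BL/6J and in 390 and 376 in FVB/N, and in FVB/N in 298 and 313 in controls and in 229 and 257 in DEHP. The median excess of Zfp genes became -0.11 for C57BL/6J DEHP, -0.48 for FVB/N controls and 0.22 for FVB/N DEHP, and -0.01 for C57BL/6J controls, so its sign changed in both C57BL/6J groups. Too few promoters on X were left for a value.

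With a factor of 1.5, promoters above were 691, 500, 1343 and 775, and below 1184, 981, 1521 and 1252, with 535 above and 1051 below in at least 2 groups. With 1/mean removed from the squared SD/mean as a counting share, the median at 10 to 14 reads became 0.202 and 0.198 in C57BL/6J controls and DEHP and 0.0 in FVB/N DEHP, so that the ratios of FVB/N DEHP to FVB/N controls and to C57BL/6J DEHP became 0.0. Without a reference by level, the counts higher and lower were 218 and 3265 in FVB/N DEHP against controls, 2506 and 292 between strains in controls and 273 and 1481 in DEHP. With a reference by CG sites, X in FVB/N controls had a median of -0.49. Without the FVB/N control group (added after the data were seen), 0 promoters were above in at least 2 groups and 74 below.

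Leaving out each male in turn was not run, since only group values were used. No paired analysis was possible because the table gives only group means and SDs and numbers carry no pairing. Depth per library was not determined, and with 5 males the SD of a single promoter is known to within a factor of 0.599 to 2.87 (95%, normal values).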

Other observations

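Outside the promoters described, the SD shows where a single male held most of the signal. For 5 values that are not negative, an SD of 1.5 times the mean means that 1 library holds at least 56.0% of the group's reads. At a mean of at least 2 normalized reads, 333 of 14485 promoters (2.3%) in FVB/N controls reached this value as rounded, 11 of 16985 (0.0648%) did in C57BL/6J controls, and 0 of 18812 and 0 of 18031 did in C57BL/6J DEHP and FVB/N DEHP. Mmp12, a metalloprotease of macrophages, had 2.5 ± 5.7 normalized reads in FVB/N controls, against 4.5 ± 3.6, 6.9 ± 3.1 and 5.3 ± 1.8 in C57BL/6J controls, C57BL/6J DEHP and FVB/N DEHP. Ctsj, a cathepsin of the placenta, had 2.3 ± 5.1 against 2.8 ± 3.2, 5.4 ± 1.5 and 5.5 ± 2.8, and at least 93.9% of its reads in FVB/N controls came from 1 library, rounding of mean and SD included. Wdr41 and Fam110b both had 2.0 ± 4.5 in that group, where at least 95.4% of reads came from 1 library. The promoter 9330162012Rik, which is among the 7153, had 6.0 ± 12.3 in FVB/N controls, with at least 85.6% of reads in 1 library, against 11.1 ± 2.2, 9.6 ± 3.6 and 9.5 ± 4.1. In C57BL/6J controls the highest value was that of Ptchd4 with 2.6 ± 4.7, and at least 69.3% of its reads came from 1 library. Whether it was the same male at different promoters cannot be told from means and SDs. These promoters were named as the highest values, after the values were seen.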
